A study of Homo sapiens with 14 samples.

Results

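The genes described here are 78 chromatin genes, chosen by symbol: every gene whose symbol begins with INO80, SMARC, ARID followed by a digit from 1 to 5, CHD, BRD or KDM followed by a digit, KMT2 or SETD. They were 78 of the 12202 genes that appear in either of the authors' deposited tables, and 76 of them are protein-coding in GENCODE release 29. The prefixes gave 5 INO80, 13 SMARC, 9 ARID, 9 CHD, 7 BRD, 5 KMT2, 13 SETD and 17 KDM genes, and 2 of these, KDM4A-AS1 and SETD5-AS1, are antisense transcripts (GENCODE 29 names SETD5-AS1 THUMPD3-AS1). Each table held 77 of them, and 76 were in both: KMT2B was listed only under siRNA and SMARCD3 only under deletion.

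All 14 libraries came from teloHAEC, a human cell line of aortic endothelium made immortal with telomerase. Cells of the siRNA arm were reverse transfected with siRNA against CALCRL, the calcitonin receptor-like receptor gene (4 libraries), or with scrambled siRNA (4 libraries), and lysed 24 hours later. In the deletion arm, cells were electroporated with Cas9 ribonucleoprotein carrying guides on both sides of a CALCRL enhancer (3 libraries) or a control guide against HPRT (3 libraries), and collected 2 days later. No sorting or cloning of the edited cells is described in the labels, so these libraries are read as pools in which not every cell need carry the deletion, and in such bulk RNA fewer cells with a transcript and less transcript per cell cannot be told apart. RNA was read with QuantSeq, a 3' mRNA-seq method that reads near the polyadenylated end of a transcript. The arms also differ in delivery, time and control, and the part of each in a difference between them cannot be told apart.

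Chromatin remodellers are ATP-driven machines that slide, evict or exchange nucleosomes; the SWI/SNF, ISWI, CHD and INO80 families each have their own ATPase subunits and accessory proteins. Histone methyltransferases such as the KMT2 and SETD enzymes place methyl groups on lysines, KDM demethylases remove them, and bromodomain proteins (BRD) bind acetylated lysines. In endothelial cells SMARCA4 and CHD4 are known from work on vessel development.

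The authors' deposited tables hold, per gene, a normalised count averaged over all libraries, a log2 fold change between treated and control libraries with its standard error (SE), and a DESeq2 Wald test. They hold no value for a single library, so the spread between libraries is seen only through the SE, the depth of each library is unknown, and no overlap between groups can be stated. Nothing in the labels says that the replicates came from separate cultures, and the p-values then measure only the spread between these samples, which may be technical. The targeted gene, CALCRL, had a log2 fold change of -1.56 (SE 0.17, adjusted p = 1.9e-17) under siRNA and of -1.47 (SE 0.43, adjusted p = 0.0096) under deletion in the authors' deposited tables. Of 12 endothelial markers, 11 were listed in both tables, with mean normalised counts from 42.0 to 2063 under siRNA and from 18.7 to 2277 under deletion. PECAM1 was searched by symbol and was listed in neither. None of 5 fibroblast and none of 3 epithelial markers was listed, while 2 of 5 smooth muscle markers (ACTA2 and TAGLN) and 1 of 4 leukocyte markers (CD68) were. The median SE in the authors' deposited tables was 0.17 under siRNA and 0.41 under deletion, so the deletion arm resolves only larger changes. For the chromatin genes the median SE was 0.16 and 0.34.

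Few chromatin genes changed under siRNA and more under deletion, in each case close to the share of all genes. A gene is called here when its adjusted p-value is under 0.05. In the authors' deposited table for siRNA, 2 of 77 chromatin genes (2.60%) were called, INO80C higher and KMT2A lower, against 3.46% of the 11261 genes tested (1.05% higher, 2.42% lower). Under deletion, 12 of 77 (15.6%) were called, 8 higher and 4 lower, against 15.8% of 11830 genes (7.40% higher, 8.44% lower). At an unadjusted p under 0.05 the authors' deposited tables held 12 chromatin genes under siRNA, where 12.0% of all genes passed, and 23 under deletion, where 29.7% passed. The number of called genes therefore does not set the chromatin genes apart from other genes in either arm.

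**Figure D1:**
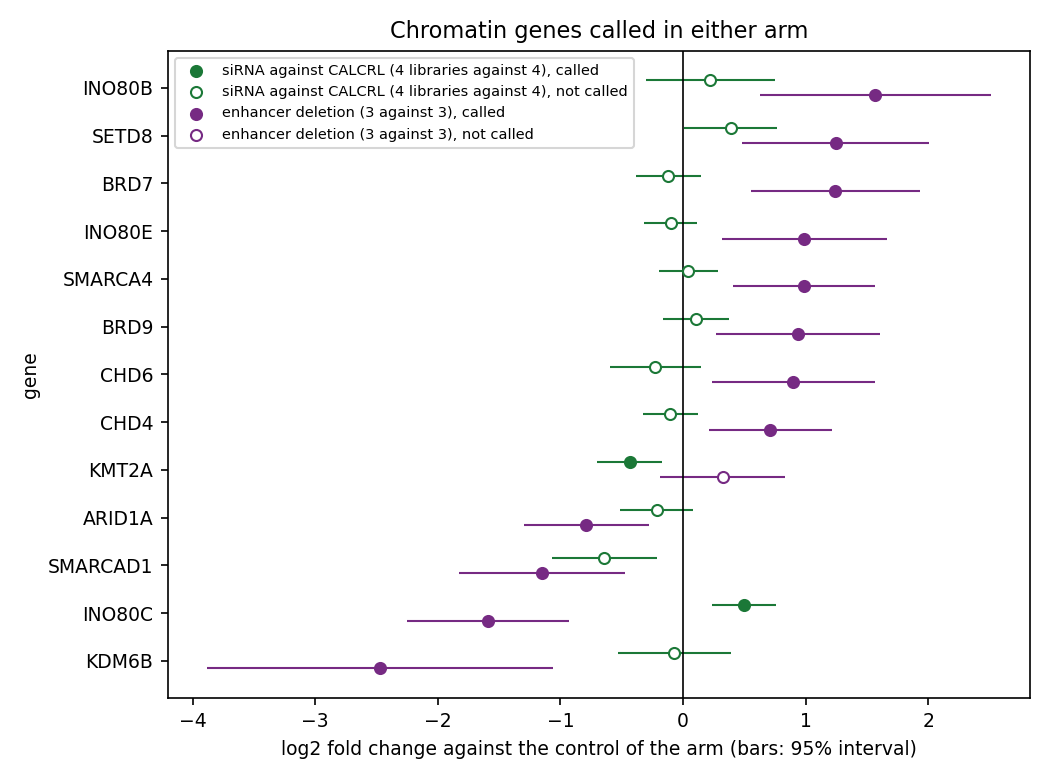
The 13 chromatin genes called in either arm, ordered by their log2 fold change under deletion. Points give the log2 fold change against the control of the arm (horizontal axis, green for siRNA and purple for deletion), bars its 95% interval, and filled points the called values; INO80C is the gene with filled points on both sides of 0, at 0.50 under siRNA and -1.59 under deletion.

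The INO80 complex moves and spaces nucleosomes and takes part in DNA repair and histone variant exchange. Of its subunits, 5 carry the INO80 prefix, and 3 of these (60%) were called under deletion, against 15.8% of all genes. Among INO80, SRCAP and TIP60 subunits outside the prefixes, 4 of 24 (16.7%) were called there. INO80C, a small subunit (chromosome 18, 35452230 to 35497991, minus strand, GRCh38), was the only gene of the 78 called in both arms. Its group means, derived from the deposited mean and fold change, were 306 normalised counts with scrambled siRNA and 432 with siRNA against CALCRL. In the deletion arm they were 438 normalised counts with the control guide and 146 after deletion, which is 33.2% of the control (95% interval 21.0 to 52.6%). INO80C thus rose under siRNA (log2 fold change 0.50, SE 0.13, adjusted p = 0.0099) and fell under deletion (-1.59, SE 0.34, adjusted p = 0.000218) in the authors' deposited tables. The difference of the log2 fold changes, siRNA minus deletion, was 2.09 (SE 0.36, 95% interval 1.37 to 2.80), and by its p-value it ranked 12 of the 10891 genes tested in both arms.

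The other INO80-prefixed genes did not share this pattern. INO80B, which carries a zinc finger of the HIT type, had derived means of 66.7 normalised counts in the control and 198 after deletion, and INO80E had 168 and 334. Both rose under deletion in the authors' deposited table, INO80B by a log2 fold change of 1.57 (SE 0.48, adjusted p = 0.0142) and INO80E by 0.99 (SE 0.34, adjusted p = 0.0320). With the trend on GC content removed (described below), INO80B was at 0.90 (adjusted p = 0.212) and INO80E at 0.41 (adjusted p = 0.467), so neither call held. Under siRNA the authors' deposited table gave 0.22 (SE 0.27) for INO80B and -0.10 (SE 0.11) for INO80E, neither of them called. The ATPase gene INO80 itself had log2 fold changes of -0.17 (SE 0.14) and 0.45 (SE 0.37) in the authors' deposited tables, and INO80D of -0.24 (SE 0.21) and 0.01 (SE 0.35). The 3' end of INO80B lies within the readthrough gene INO80B-WBP1 on the same strand, and that of INO80E overlaps DOC2A on the other strand, so reads there may be shared. INO80C has no such overlap in GENCODE.

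SWI/SNF complexes open chromatin at enhancers and promoters and come as BAF, PBAF and non-canonical BAF. Of 14 subunits among these genes, 11 had a positive and 3 a negative log2 fold change under deletion. Their median was 0.40, and 4 (28.6%) were called. Over all genes 50.3% of values were positive and 15.8% were called. The 13 listed SWI/SNF subunits outside the prefixes had 6 positive and 7 negative values under deletion. Their median was -0.14, with 1 called higher and 2 lower. SMARCA4, the ATPase also called BRG1, went from a derived mean of 1267 to 2507 normalised counts after deletion (198% of control, 95% interval 132 to 295%). BRD7, a subunit particular to PBAF, went from 416 to 984 normalised counts (236%, 147 to 381%), and BRD9, a subunit particular to non-canonical BAF, from 433 to 831 (192%, 121 to 305%). These 3 rose under deletion in the authors' deposited table, by log2 fold changes of 0.98 (SE 0.30, adjusted p = 0.0120), 1.24 (SE 0.35, adjusted p = 0.0073) and 0.94 (SE 0.34, adjusted p = 0.0414) in that order.

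ARID1A, the DNA-binding subunit of canonical BAF, was the called SWI/SNF gene that fell. Its derived mean was 346 normalised counts in the deletion control and 201 after deletion (57.9%, 95% interval 40.6 to 82.5%), with a log2 fold change of -0.79 (SE 0.26, adjusted p = 0.0239) in the authors' deposited table. Its paralog ARID1B was at 0.17 (SE 0.30) and the PBAF subunit ARID2 at -0.68 (SE 0.35, adjusted p = 0.172) in the authors' deposited table for deletion. SMARCA2, the ATPase that replaces SMARCA4 in some complexes, was at 0.58 (SE 0.29, adjusted p = 0.146) there, and SMARCE1 at -0.62 (SE 0.28, adjusted p = 0.109). The core subunits SMARCC1 (0.24, SE 0.21) and SMARCB1 (0.43, SE 0.33) were positive and not called in that authors' deposited table. SMARCD3 had the most positive value, 2.26 (SE 1.18, adjusted p = 0.178), at derived means of only 3.51 and 16.8 normalised counts, and was not called in the authors' deposited table. The calls of SMARCA4, BRD9 and ARID1A did not hold with the GC trend removed, where they were at 0.55 (adjusted p = 0.209), 0.58 (adjusted p = 0.272) and -0.59 (adjusted p = 0.120), while BRD7 held at 1.25 (adjusted p = 0.0082). The 3' end of BRD7 overlaps that of ADCY7 on the opposite strand, and ADCY7 had log2 fold changes of -0.54 under siRNA and -1.68 (SE 0.38) under deletion in the authors' deposited tables.

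Under siRNA none of the 13 SWI/SNF subunits listed was called, with 6 positive and 7 negative values, a median of -0.02 and 1 gene, ARID2, at an unadjusted p under 0.05 by the DESeq2 Wald test. SMARCA4 was at 0.04 (SE 0.12), BRD7 at -0.12 (SE 0.13), BRD9 at 0.10 (SE 0.14), SMARCA2 at -0.06 (SE 0.14) and ARID1A at -0.21 (SE 0.15) in the authors' deposited table. SMARCB1 was the most positive SMARC gene (0.27, SE 0.16, adjusted p = 0.510) in that authors' deposited table. The arms differed for SMARCA4 (siRNA minus deletion -0.94, 95% interval -1.57 to -0.31, adjusted p = 0.0307) and for BRD7 (-1.36, -2.10 to -0.62, adjusted p = 0.0073), and the difference for BRD9 missed the threshold (-0.84, -1.56 to -0.11, adjusted p = 0.107). The difference for SMARCA4 was -0.53 (adjusted p = 0.283) and not called when the GC trend was removed, while that for BRD7 held.

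Among the SMARC genes outside SWI/SNF, SMARCAD1, an ATPase with roles in DNA end resection and silent chromatin, had the lowest value in both arms. Its derived mean went from 167 to 107 normalised counts under siRNA and from 236 to 106 under deletion. In the authors' deposited tables it fell under deletion (-1.15, SE 0.34, adjusted p = 0.0117), and under siRNA its log2 fold change of -0.64 (SE 0.22) missed the threshold (adjusted p = 0.0804). With the GC trend removed the deletion value was -0.88 (adjusted p = 0.0706). The arms were not shown to differ for SMARCAD1 (0.51, SE 0.41, adjusted p = 0.423). The ISWI ATPases SMARCA5 and SMARCA1 were called in neither arm, with 0.01 (SE 0.13) and 0.14 (SE 0.13) under siRNA and 0.35 (SE 0.27) and -0.11 (SE 0.29) under deletion in the authors' deposited tables. SMARCAL1, which remodels stalled replication forks, was at -0.01 (SE 0.19) and -0.26 (SE 0.40) in the authors' deposited tables.

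CHD proteins combine a chromodomain with a remodelling ATPase, and CHD3 and CHD4 are the ATPases of the NuRD complex, which also deacetylates histones. Under siRNA 8 of 9 CHD genes had negative values (median -0.16) and none was called (1 at an unadjusted p under 0.05, DESeq2 Wald test). Over all genes 50.6% of siRNA values were positive and 3.46% were called. Under deletion 7 of 9 CHD genes had positive values (median 0.42) and 2 (22.2%) were called. Over all genes 50.3% of deletion values were positive and 15.8% were called. CHD4 went from a derived mean of 1203 to 1971 normalised counts after deletion (164%, 95% interval 116 to 232%), and CHD6 from 80.0 to 149 (186%, 118 to 295%). Both rose in the authors' deposited table for deletion, CHD4 by 0.71 (SE 0.26, adjusted p = 0.0396) and CHD6 by 0.90 (SE 0.34, adjusted p just under the threshold of 0.05). Under siRNA CHD4 was at -0.10 (SE 0.11) and CHD6 at -0.23 (SE 0.19) in the authors' deposited table. The arms differed for CHD4 (-0.81, 95% interval -1.36 to -0.26, adjusted p = 0.0334) and for CHD6 (-1.13, -1.89 to -0.37, adjusted p = 0.0334).

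With the GC trend removed CHD6 held (1.04, adjusted p = 0.0251) and CHD4 did not (0.64, adjusted p = 0.0751). The difference between the arms then held for CHD6, and for CHD4 it was -0.76 (adjusted p = 0.0559), outside the threshold. CHD6 lost its call when fold changes were centred on the median of all genes and when genes with an unusually high siRNA SE were left out. CHD3 was at 0.83 (SE 0.35, adjusted p = 0.0833) in the authors' deposited table for deletion. CHD9 was the lowest CHD gene under siRNA (-0.26, SE 0.12, adjusted p = 0.370) and CHD1L the highest (0.20, SE 0.12) in the authors' deposited table. CHD1, which binds methylated H3K4, was the lowest under deletion (-0.08, SE 0.23) in the authors' deposited table.

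BRD2 and BRD3 are BET proteins, which bind acetylated histones and recruit the transcription elongation machinery. Neither was called in either arm by the DESeq2 Wald test. Under deletion BRD2 went from a derived mean of 574 to 848 normalised counts, with a log2 fold change of 0.56 (SE 0.26, adjusted p = 0.123) in the authors' deposited table. BRD3 was at 0.06 (SE 0.25) there in the authors' deposited table. Under siRNA BRD2 was at -0.21 (SE 0.13) and BRD3 at 0.07 (SE 0.12) in the authors' deposited table. The arms were not shown to differ for BRD2 (-0.77, 95% interval -1.35 to -0.20, adjusted p = 0.0542), though BRD2 was called in the difference with the GC trend removed and with a count minimum of 20. All 7 BRD genes had values above 0 under deletion, from 0.003 for BRD1 to 1.24 for BRD7, with a median of 0.45.

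Of the 6 ARID3 to ARID5 genes, DNA-binding proteins outside SWI/SNF, none was called in either arm by the DESeq2 Wald test, with 1 under siRNA and 0 under deletion at an unadjusted p under 0.05. ARID5B had the lowest value of the ARID family under siRNA (-0.49, SE 0.21, adjusted p = 0.244) and ARID3A the highest (0.23, SE 0.22) in the authors' deposited table. ARID5A had the highest under deletion (0.78, SE 0.50, adjusted p = 0.290) in the authors' deposited table.

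The H3K4 methyltransferases place methyl groups at promoters and enhancers: SETD1A and SETD1B at active promoters, KMT2A and KMT2B at selected genes, and KMT2C and KMT2D at enhancers. All 6 had negative log2 fold changes under siRNA, with a median of -0.32, and 1 (16.7%) was called. Over all genes 50.6% of siRNA values were positive and 3.46% were called. KMT2A (also MLL1) went from a derived mean of 617 to 456 normalised counts under siRNA, 73.9% of the control (95% interval 61.5 to 88.9%). It fell by 0.44 on the log2 scale (SE 0.14, adjusted p = 0.0407) in the authors' deposited table. Values for the others in the authors' deposited table were -0.41 for SETD1B (SE 0.19), -0.40 for KMT2D (SE 0.37), -0.24 for KMT2C (SE 0.13), -0.20 for SETD1A (SE 0.20) and -0.18 for KMT2B (SE 0.15), with adjusted p-values from 0.308 to 0.824. KMT2D rests on a mean of only 22.1 normalised counts. The 3' ends of KMT2B, KMT2D and SETD1A overlap IGFLR1, DDN-AS1 and AC135048.4, in that order, on the other strand, so reads there may be shared. With the GC trend removed KMT2A was at -0.41 under siRNA (adjusted p = 0.0640), outside the threshold.

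Under deletion the same group had 3 positive and 2 negative values and no call by the DESeq2 Wald test, also with 0 genes at an unadjusted p under 0.05. KMT2A was at 0.32 (SE 0.26), KMT2C at 0.19 (SE 0.28), KMT2D at 1.15 (SE 0.64), SETD1A at -0.03 (SE 0.40) and SETD1B at -0.53 (SE 0.34) in the authors' deposited table. The difference between the arms for KMT2A was -0.76 (95% interval -1.33 to -0.19, adjusted p = 0.0612), which missed the threshold, and it was -1.01 (adjusted p = 0.0116) with the GC trend removed. KMT2E, whose SET domain lacks known methyltransferase activity, was at -0.23 (SE 0.10, adjusted p = 0.284) under siRNA and at 0.004 (SE 0.19) under deletion in the authors' deposited tables. The COMPASS core and partner genes that hold these enzymes together had no call in either arm among the 11 of 12 listed, with 0 under siRNA and 3 under deletion at an unadjusted p under 0.05 (DESeq2 Wald test).

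Among the other SET domain genes, SETD8, which monomethylates H4K20, had the highest value of the SETD family in both arms. Its derived mean went from 205 to 269 normalised counts under siRNA and from 245 to 580 under deletion. The authors' deposited tables gave log2 fold changes of 0.39 (SE 0.19, adjusted p = 0.398) under siRNA and 1.25 (SE 0.39, adjusted p = 0.0161) under deletion, so SETD8 rose in the deletion arm. Its deletion value with the GC trend removed was 1.05 (adjusted p = 0.0550). SETD7, a lysine monomethyltransferase, had the lowest SETD value under siRNA: its derived mean went from 472 to 335 normalised counts, a log2 fold change of -0.50 (SE 0.17, adjusted p = 0.0700) in the authors' deposited table. SETDB1, an H3K9 methyltransferase of silent chromatin, was at -0.47 (SE 0.16, adjusted p = 0.0699) there in the authors' deposited table. The H3K36 methyltransferase SETD2 was at -0.11 (SE 0.15) and 0.12 (SE 0.27), and SETD4 was the lowest under deletion at -1.19 (SE 0.52, adjusted p = 0.102), in the authors' deposited tables.

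KDM6A and KDM6B remove methyl groups from H3K27, the mark that Polycomb complexes write. KDM6B (also JMJD3; chromosome 17, 7839904 to 7854796, plus strand, GRCh38) went from a derived mean of 50.8 to 9.17 normalised counts after deletion, 18.1% of the control with a wide 95% interval of 6.78 to 48.0%. It fell under deletion (-2.47, SE 0.72, adjusted p = 0.0096) and was at -0.07 (SE 0.24) under siRNA in the authors' deposited tables. The arms differed for KDM6B (2.40, 95% interval 0.91 to 3.88, adjusted p = 0.0201), and the deletion value with the GC trend removed was -2.63 (adjusted p = 0.0067). KDM6A was at -0.26 (SE 0.25) under siRNA and -0.71 (SE 0.45, adjusted p = 0.286) under deletion in the authors' deposited tables. KDM6B thus had the most negative log2 fold change of the 77 chromatin genes in the deletion arm, at a low count.

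The other KDM genes were called in neither arm by the DESeq2 Wald test, with KDM3A under siRNA and KDM1A, KDM1B and KDM2A under deletion at an unadjusted p under 0.05. Among the H3K4 demethylases under deletion, KDM1A (also LSD1) was at -0.83 (SE 0.33, adjusted p = 0.0664), KDM1B at -1.50 (SE 0.70), KDM5A at 0.20 (SE 0.24), KDM5B at 0.16 (SE 0.25) and KDM5C at -0.53 (SE 0.30) in the authors' deposited table. Their siRNA values in the authors' deposited table lay between -0.06 for KDM5A and 0.11 for KDM1B, with KDM5B at -0.03 (SE 0.13) and KDM5C at -0.04 (SE 0.11). KDM1A gained a call under deletion with the GC trend removed, as did SMARCA2. KDM3A, an H3K9 demethylase, was the highest KDM gene under siRNA (0.37, SE 0.17, adjusted p = 0.299) and KDM3B the highest of those above 20 normalised counts under deletion (0.64, SE 0.34, adjusted p = 0.186) in the authors' deposited tables. KDM8 had a value of 2.29 (SE 1.35, adjusted p = 0.245) under deletion in the authors' deposited table, at derived means of only 3.73 and 18.2 normalised counts. The antisense transcript KDM4A-AS1 had -0.85 (SE 0.54) and 0.83 (SE 0.77), and SETD5-AS1 -0.05 (SE 0.21) and 0.39 (SE 0.50), in the authors' deposited tables, none of them called. Whether counting used the strand is not given in the sources used here, so antisense pairs with overlapping 3' ends may share reads. For KDM4A, SETD5 and these antisense transcripts, the final 500 bases of the GENCODE transcript used did not overlap exons of the partner.

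In 6 of the 8 families the median was negative under siRNA and positive under deletion; it was positive in both arms for SMARC and negative in both for SETD. Over all chromatin genes 29 values were positive and 48 negative under siRNA, around a median of -0.06 (log2), and 51 were positive and 26 negative under deletion, around a median of 0.22. The medians over all genes were 0.003 and 0.005. Under siRNA the family medians ran from -0.24 for KMT2 (5 of 5 negative) and -0.16 for CHD to 0.01 for SMARC, with INO80 at -0.10, ARID at -0.11, SETD at -0.05, BRD at -0.04 and KDM at -0.03. Under deletion they were 0.45 for INO80, 0.45 for BRD, 0.42 for CHD, 0.35 for SMARC, 0.26 for KMT2 (4 of 4 positive), 0.17 for ARID and 0.16 for KDM, with SETD at -0.03. These are descriptions over genes that share libraries, and no test was made of a family.

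**Figure D2:**
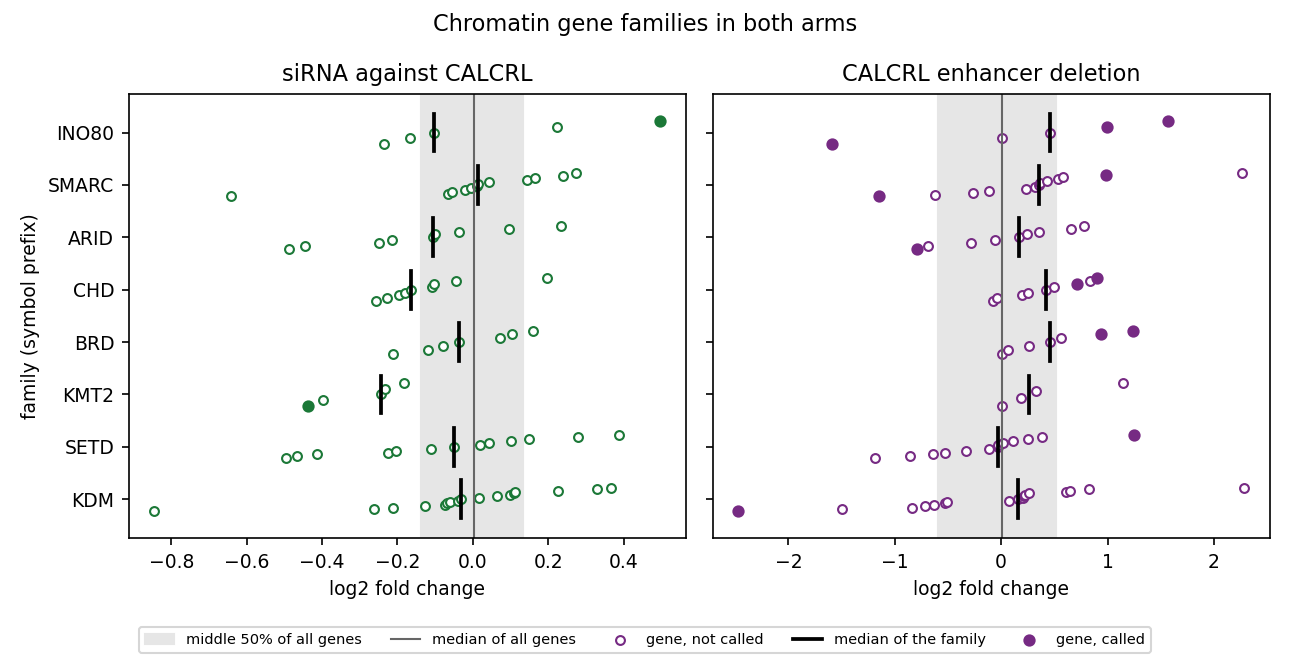
Log2 fold change of each chromatin gene by family (vertical axis, symbol prefix) under siRNA (left) and deletion (right); the horizontal scales differ between the panels. Each circle is 1 gene, filled where called, black bars are family medians, and the grey line and band are the median and the middle 50% of all genes. The KMT2 genes lie left of 0 in the siRNA panel (median -0.24) and the 7 BRD genes right of 0 in the deletion panel (median 0.45).

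The arms were compared gene by gene, with the difference of the deposited log2 fold changes over their combined SE and Benjamini-Hochberg adjustment over 10891 genes. Of 76 chromatin genes, 7 (9.21%) differed between the arms, against 13.7% of all genes (7.22% higher and 6.49% lower under siRNA than under deletion). INO80C and KDM6B were higher under siRNA than under deletion, and BRD7, CHD4, CHD6, INO80E and SMARCA4 lower. The calls of CHD4, INO80E (-0.53, adjusted p = 0.359) and SMARCA4 did not hold with the GC trend removed, and the other 4 did. Signs were negative under siRNA and positive under deletion for 31 of the 76 (40.8%), against 24.1% of the 10891 genes. Another 10 had the reverse, 19 were positive in both and 16 negative in both. Chromatin genes were 37.7% positive under siRNA and 66.2% positive under deletion, so the 40.8% largely restates the sign shares of each arm. Across the 76 genes, which share libraries, the log2 fold changes of the arms had a Pearson correlation of 0.01 and a Spearman correlation of 0.005. Over all 10891 genes these correlations were 0.01 and 0.02. In neither set did the values in 1 arm order those in the other.

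**Figure D3:**
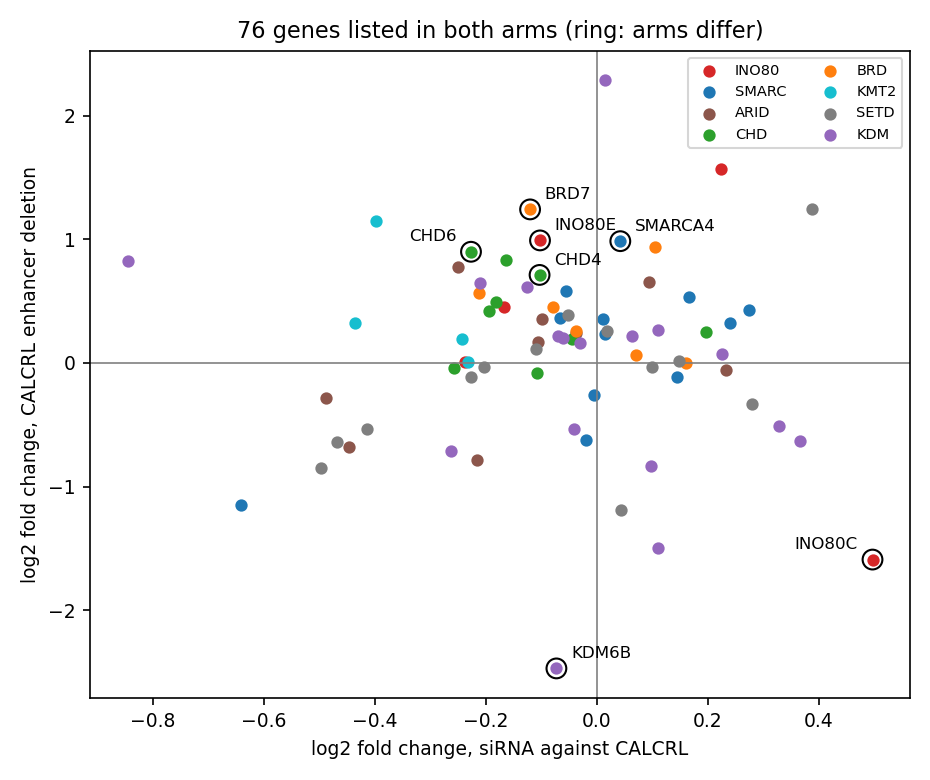
Log2 fold change under siRNA (horizontal axis) against that under deletion (vertical axis) for the 76 chromatin genes listed in both tables, coloured by family. Rings and names mark the 7 genes whose arms differed: INO80C lies at the lower right (0.50 and -1.59), KDM6B at the bottom, and the other 5 ringed genes lie above 0.7 on the vertical axis.

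GC content of the 3' end moved with the log2 fold change in the deletion arm. GC content here is that of the final 500 bases of each gene's GENCODE transcript with the longest 3' UTR. When all genes were divided into 10 groups by GC content, the median log2 fold change under deletion went from -0.26 in the lowest group (22.2 to 30.2% GC) to 0.62 in the highest (57.9 to 76.8% GC). Under siRNA the same medians went from -0.03 to 0.01. Across genes, which are not independent replicates, the Spearman correlation of log2 fold change with GC content under deletion was 0.44 for the 77 chromatin genes and 0.31 for all genes. INO80B (64.2% GC), INO80E (61.2%), SMARCA4 (56.8%) and BRD9 (54.8%) were called higher from the GC-rich end, and SMARCAD1 (30.2%) and ARID1A (35.4%) lower from the GC-poor end. INO80C (43.6%), BRD7 (44.6%) and KDM6B (49.2%) lay near the middle.

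With the GC trend removed, 7 chromatin genes were called under deletion, 4 higher, among them BRD7, CHD6 and SMARCA2, and 3 lower, INO80C, KDM1A and KDM6B. These are 9.09% of 77 chromatin genes, against 12.1% of all genes under the same alternative. The median GC content of the chromatin genes, 41.6%, equalled that of all genes, and their median log2 fold change under deletion was 0.25 with the trend removed. INO80C held in both arms, at 0.49 under siRNA (adjusted p = 0.0114) and -1.55 under deletion (adjusted p = 0.000333). The mean normalised count of the chromatin genes was above that of all genes, with medians of 211 against 130 under siRNA and 254 against 130 under deletion. The part of GC content and of mean count in these values was not tested further. The deletion calls also depend on the normal reference of the Wald test: with a Student t reference of 4 degrees of freedom, or with the Wald statistics divided by their robust SD over all genes, 0 chromatin genes and 0 of 11830 genes were called by the recomputed Wald test, with 9 and 1 chromatin genes at an unadjusted p under 0.05.

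**Figure D4:**
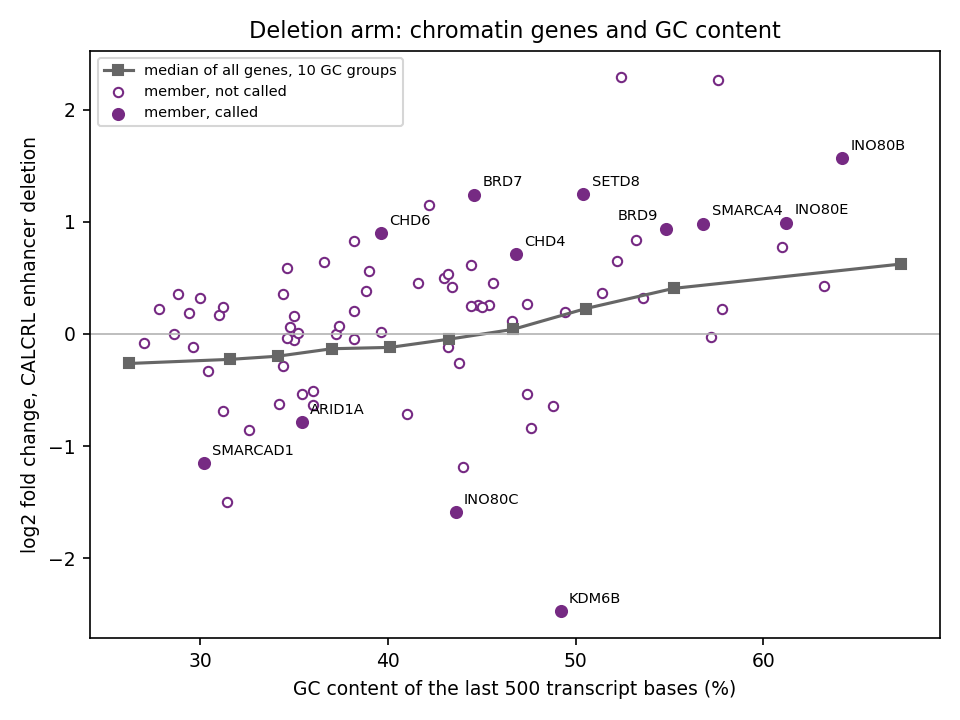
Log2 fold change under deletion (vertical axis) against GC content of the last 500 transcript bases (horizontal axis, percent) for the 77 chromatin genes, filled and named where called. The grey line joins the medians of all genes in 10 GC groups, from -0.26 to 0.62; INO80B, INO80E, SMARCA4 and BRD9 lie on its rising side, and INO80C and KDM6B lie far below it.

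Among genes lower under siRNA, a 7-base word, GTAACAA, was frequent in the annotated 3' UTR: 155 of 266 called lower (58.3%) held it, against 9.04% of the other genes. It was searched on the transcribed strand only, and it was picked with that earlier result known, so its share among genes lower under siRNA is no independent result. Of 75 chromatin genes with a 3' UTR in the siRNA table, 12 (16.0%) held the word, against 10.3% of 10634 genes. It stood in 5 of the 9 chromatin genes that were lower at an unadjusted p under 0.05 (55.6%), namely SMARCAD1, SETD7, ARID2, KMT2A and CHD9, and in 7 of the other 66 (10.6%). Of all genes lower at an unadjusted p under 0.05, 286 of 745 (38.4%) held it. The sites of these 5 genes are shown first, and those of SMARCA5, SMARCC1 and ARID3A, which hold the word and had values at or above 0, after them, so that the letters around the word can be compared. Each stretch is GRCh38 sequence, 5' to 3' on the strand of the gene, with the word in capitals.
SMARCAD1 (chr4:94289803-94289832, plus strand): ggtgattgtttGTAACAAatatgctaatgc
SETD7 (chr4:139508150-139508179, minus strand): tgaggccaaatGTAACAAtttttaacattt
ARID2 (chr12:45907842-45907871, plus strand): ataaattttaaGTAACAAaattgataatca
KMT2A (chr11:118526009-118526038, plus strand): taatgcaccatGTAACAAagcctagttcag
CHD9 (chr16:53329029-53329058, plus strand): ctaggagagaaGTAACAAgcattctccttc
SMARCA5 (chr4:143554035-143554064, plus strand): cattgaaattgGTAACAAaatatatcccct
SMARCC1 (chr3:47586978-47587007, minus strand): agatgctgaggGTAACAAggaactcacttg
ARID3A (chr19:975684-975713, plus strand): cagggtggcctGTAACAAtttcagttttcg

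The 12 chromatin genes with the word had a median log2 fold change of -0.22 under siRNA, 9 of them below 0, and the 63 without it had a median of -0.04, 37 of them below 0. Over all genes the medians were -0.12 with the word and 0.01 without it. Holders of the word were also the lower group under deletion. There the medians were 0.06 with the word and 0.21 without it for the chromatin genes, with 6 of the 12 below 0. Over all genes they were -0.15 and 0.01. Of SMARCAD1, SETD7, ARID2, KMT2A and CHD9, 4 of 5 were negative under deletion too, around a median of -0.68. The 3' UTRs of chromatin genes with the word were longer, with a median of 3507 bases against 1423, and a longer UTR holds any word more often. The word does not sort the genes fully: SMARCA5 (0.01, SE 0.13), SMARCC1 (0.01, SE 0.13) and ARID3A (0.23, SE 0.22) held it and were not below 0 in the authors' deposited table. SETDB1, ARID5B, SETD1B and KMT2E were lower at an unadjusted p under 0.05 without it. INO80C, the chromatin gene that rose under siRNA, had no copy. A match to these letters is a description and names no bound site.

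**Figure D5:**
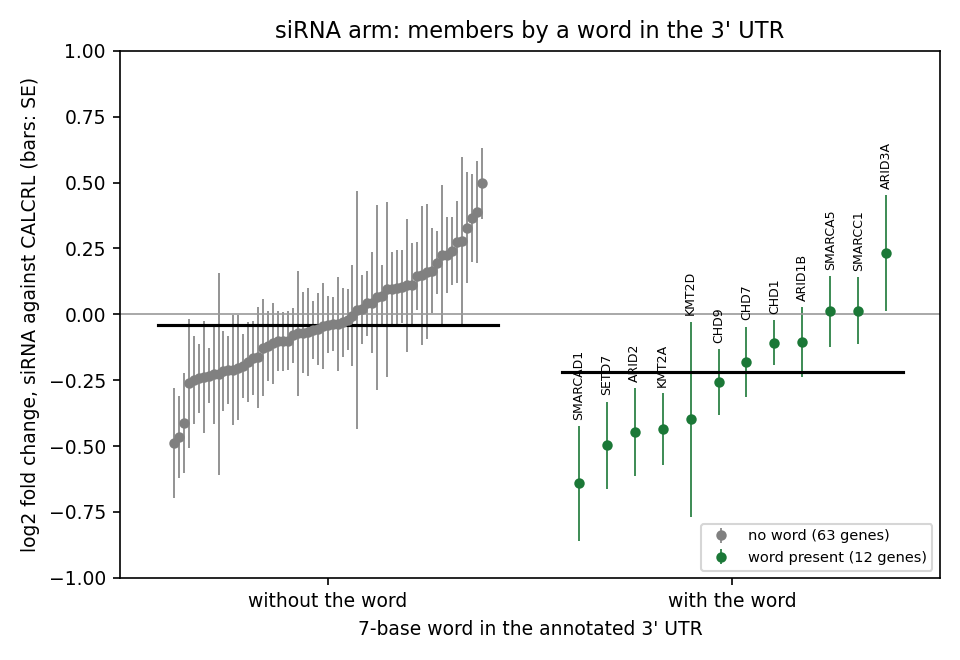
Log2 fold change under siRNA (vertical axis, bars are the SE) of the 63 chromatin genes without the 7-base word in the annotated 3' UTR (grey) and the 12 with it (green, named). Black lines are the medians, -0.04 without the word and -0.22 with it; SMARCAD1 lies lowest at -0.64 and ARID3A highest of the named genes at 0.23.

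Partners of these enzymes with other symbols were taken from 8 lists of complexes, with 153 genes listed under siRNA and 152 under deletion. Under siRNA 3 of the 153 (1.96%) were called in the authors' deposited table, all lower: the NuRD subunit MTA2 (-0.79, SE 0.11), the H3K36 methyltransferase WHSC1L1 (-0.33, SE 0.09) and the corepressor NCOR1 (-0.43, SE 0.10). MTA2 and NCOR1 each held 1 copy of the word GTAACAA in the annotated 3' UTR, and WHSC1L1 held none. Under deletion 25 of the 152 (16.4%) were called, 16 of them higher and 9 lower, in the authors' deposited table, and the median over the lists was 0.14. Both shares lie near those of all genes.

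Under deletion the called partners went in both directions within several complexes. In the INO80, SRCAP and TIP60 list RUVBL2 (1.09, SE 0.37), TFPT (1.20, SE 0.41) and ZNHIT1 (0.88, SE 0.31) were called higher and MORF4L1 (-1.87, SE 0.47) lower in the authors' deposited table. Of the SWI/SNF partners, BCL7A rose (1.06, SE 0.38) and BCL7B fell (-1.82, SE 0.44) in the authors' deposited table, and GLTSCR1 was called lower at a mean of 11.7 normalised counts. Of the NuRD and ISWI partners, MBD3 (1.34, SE 0.43), BAZ2A (0.85, SE 0.28), GATAD2A (0.63, SE 0.24) and POLE3 (0.60, SE 0.21) were called higher and MTA1 (-2.01, SE 0.43) and RBBP7 (-0.95, SE 0.26) lower in the authors' deposited table. The Polycomb genes EED (-2.06, SE 0.51), a core subunit of the H3K27 methyltransferase complex, and PHC3 (-1.74, SE 0.56) were called lower there in the authors' deposited table, and 11 of the 26 Polycomb genes listed had positive values.

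Among other methyltransferases, the H3K9 enzyme EHMT2 (1.44, SE 0.36) and the arginine methyltransferases PRMT1 (1.08, SE 0.33), PRMT2 (0.96, SE 0.27) and CARM1 (0.89, SE 0.28) rose and PRMT3 (-2.22, SE 0.78) fell under deletion in the authors' deposited table. The JmjC list had JMJD4 (1.42, SE 0.49) and PHF2 (0.94, SE 0.35) higher and JMJD6 (-1.22, SE 0.35) lower in the authors' deposited table for deletion. Of the acetylation genes, the acetyltransferase KAT7 (0.83, SE 0.30) and the deacetylase SIRT7 (1.10, SE 0.39) were called higher in that authors' deposited table. GC content of the partners called higher under deletion ran from 38.2% for PHF2 to 62.2% for TFPT. That of those called lower ran from 28.4% for PRMT3 to 54.0% for MTA1. The median over all genes was 41.6%. Of the partners called higher, only PHF2 and PRMT2 (40.8%) lay below it. Of those called lower, PRMT3, PHC3, MORF4L1, RBBP7 and EED lay below it, and BCL7B, JMJD6, GLTSCR1 and MTA1 above it. The part of GC content in these partner calls was not tested.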

How the data were processed

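RNA of 14 libraries in 2 arms was compared within each arm; groups were taken from the sample titles. The authors used featureCounts for read counting and DESeq2 for the comparison, per the file headers and names. The submitters' processing notes name hg19 and edgeR 3.24.3, with no role. The aligner, annotation, filters and strand setting of counting are not given in the sources used here. The authors' deposited tables give mean normalised counts, log2 fold changes with standard errors, p-values and a Wald statistic (a score). Dividing each log2 fold change by its SE gave the deposited Wald statistic, and adjusting the p-values over the table by Benjamini-Hochberg gave the deposited adjusted ones, to within rounding. Of 11835 rows in the deletion table, 5 had no p-value and were not tested.

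The members and the gene lists were chosen with earlier results of these data known. Counts per library were not analysed here, so no count model was fitted and all single-gene tests within an arm are the authors' own. From the deposited values, 95% intervals used the normal quantile. Each group mean was derived by splitting the deposited mean by the fold change, for groups of equal size. The difference between arms used both log2 fold changes and standard errors (normal reference, Benjamini-Hochberg over 10891 genes). Its calculation was run on simulated data drawn from a normal distribution with the deposited standard errors. Such data cannot show whether the normal reference holds for the real libraries. Genes were matched by ID to GENCODE release 29 (GRCh38) for 11099 and 11630 genes and all 78 members; this may not be the authors' annotation. The GC trend was a lowess fit of span 0.3 (statsmodels 0.14.6; Python 3.11.15, pandas 2.3.3, scipy 1.17.1).

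Named genes were the members called in an arm or in the difference, the highest and lowest member of each family and arm whose mean reached 20 normalised counts, a fixed list of ATPases, BET genes and H3K4 and H3K27 enzymes, CALCRL, and called genes of the 8 lists; 1 gene that the rule names is not reported here. Other members named, among them those near the threshold, at low counts or holding the word, were chosen after their values were seen. Alternatives tried were a Student t reference, a robust SD of the Wald statistics, median centring, a count minimum of 20, GC removal, leaving out 219 genes whose siRNA SE was over 2 times the trend at their mean count, protein-coding members alone, and a threshold of 0.1.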

Additional observations from a re-analysis of the deposited data

Results flagged for a closer look

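For 7 of the 76 chromatin genes measured in both arms, the log2 fold change under siRNA differed from that under deletion by the test of the difference (adjusted p-value under 0.05 over 10891 genes, where 13.7% of all genes passed). For INO80C the difference, siRNA minus deletion, was 2.09, with a rise under siRNA and a fall under deletion. For KDM6B it was 2.40, at a derived mean of 9.17 normalised counts after deletion. For BRD7 it was -1.36, for CHD6 -1.13, for INO80E -1.09, for SMARCA4 -0.94 and for CHD4 -0.81; these 5 were called higher under deletion and not called under siRNA. After removal of the GC trend, the differences for INO80E (-0.53, adjusted p = 0.359), SMARCA4 (-0.53, adjusted p = 0.283) and CHD4 (-0.76, adjusted p = 0.0559) were no longer called. The arms differ in delivery, time and control, which cannot be told apart here.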

How the results depend on the processing

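Only median centring and removal of the GC trend alter a fold change, so under the other alternatives no gene could change direction. With median centring the medians of the chromatin genes were -0.06 under siRNA and 0.21 under deletion. With the GC trend removed they were -0.06 and 0.25. No called gene changed direction under either. Counts of called genes did move. With a Student t reference, 0 chromatin genes were called under siRNA, 0 under deletion and 0 in the difference by the recomputed Wald tests, with 6, 9 and 13 at an unadjusted p under 0.05. With Wald statistics divided by their robust SD, 1 was called under siRNA (INO80C), 0 under deletion and 0 in the difference, with 10, 1 and 2 at an unadjusted p under 0.05. Over all genes these alternatives called 5 and 262 under siRNA, and 0 under deletion and in the difference, with 1646 and 534 genes under deletion and 1869 and 447 in the difference at an unadjusted p under 0.05. With the GC trend removed, 1 was called under siRNA, 7 under deletion and 8 in the difference. These are 1.30%, 9.09% and 10.5% of chromatin genes, against 3.25%, 12.1% and 11.2% of all genes. At an adjusted p under 0.1, 5 were called under siRNA (SETDB1, SETD7 and SMARCAD1 added, all lower; 6.49% of chromatin genes against 4.59% of all genes) and 13 in the difference, where 2284 of all genes were called against 1493 at 0.05. Adjusted p-values of INO80C over its alternatives ran from 0.00878 to 0.467 under siRNA, from 0.000185 to 0.976 under deletion and from 7.46e-06 to 0.992 in the difference. No paired analysis was possible because no values of single libraries were analysed here; leaving out each replicate, a replicate block and other count tools were therefore not run. The unknown depth limits low genes most: KDM6B, KDM8 and SMARCD3 rest on derived means of 3.51 to 18.2 normalised counts in at least 1 group.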
